A study of Mus musculus with 4 samples.

Results

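The protein genes of the mitochondrial ribosome were followed in RNA pulled down with tagged astrocyte ribosomes from mice on cuprizone and mice on a mock diet. Members were the mouse genes whose symbol begins with Mrpl or Mrps and a number, without pseudogene symbols, with a mean of at least 1 CPM (counts scaled to the library total) over the 4 libraries. This gave 77 of the 55471 genes in the count tables, 48 named for the large subunit (Mrpl) and 29 for the small subunit (Mrps). All 77 passed the filter on low counts and were among the 15816 genes tested. The 5 pseudogene rows were left out by their symbols, and Mrpl53 was the only other row left out, because it was listed at 0 in all 4 libraries. On GENCODE M21, 88.0% of the exon bases of Mrpl53 also belong to Gm42688 on the same strand, so its level could not be read from these tables.

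The cuprizone group held 2 libraries and the mock group 2 libraries, labelled as biological replicates of astrocytes from brain. Animals of both groups were GFAP-Cre+/- Rpl22HA/wt, so that the cells in which the GFAP promoter had driven Cre carried HA-tagged Rpl22, a protein of the cytosolic ribosome. All 4 libraries were labelled 3 weeks and batch 1, while the series' design names corpus callosum of male mice aged 8 to 9 weeks, 0.2% cuprizone in the chow or normal chow, and times of 5, 5.5 and 7 weeks. That mismatch was not settled. Animals per library are not given in the labels, so p-values measure the spread between libraries. Cuprizone binds copper, and mice fed it lose oligodendrocytes and the myelin of the corpus callosum. The comparison sets RNA bound to tagged ribosomes on the cuprizone diet against the mock diet. Library totals ran from 21209517 to 23822620 counts, and the lowest count of a member in any library was 365.

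The mitochondrial ribosome sits in the matrix of the mitochondrion and makes the few proteins encoded by mitochondrial DNA, all of them subunits of the respiratory chain or of ATP synthase. Its RNAs come from mitochondrial DNA, but every one of its proteins is encoded in the nucleus, translated on cytosolic ribosomes and imported. The tagged ribosome is the cytosolic one, so these values describe messages for mitochondrial ribosomal proteins on their way to translation, not mitochondrial ribosomes. Some proteins have bacterial counterparts, and others, often placed on the outer surface, are found in mitochondria alone.

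The messages for mitochondrial ribosomal proteins stood at close levels on both diets. They took 0.623% and 0.556% of counts in the cuprizone libraries, against 0.642% and 0.567% in the mock libraries, or 0.590% ± 0.0478 in cuprizone and 0.604% ± 0.0530 in mock (SD, n = 2 each). The 2 libraries of each diet were further apart than the means of the diets. EdgeR's quasi-likelihood test with Benjamini-Hochberg adjustment over all genes called 0 of the 77 members, beside 0.0822% of all genes tested (13 genes), and the lowest adjusted p of a member was 0.358. DESeq2 likewise called 0 members, beside 4.74% of all genes, and limma-voom called 0, beside 0.297%. At an unadjusted p under 0.05, 1 of 77 members passed, Mrps2, where 12.8% of all genes did.

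The folds of the members lay in a narrow band. Log2 folds of cuprizone over mock ran from -0.54 for Mrpl43 to 0.58 for Mrps2, and these 2 were the members beyond 0.5 in either direction, a size that 40.0% of all genes tested passed. The members also had more counts than most genes, with a median of 74.2 CPM against 16.8 CPM over all genes tested, and their folds had a smaller error, with a median SE of 0.20 against 0.39, so the share over all genes is not one at like counts. The 95% interval of the log2 fold stayed between -1 and 1 for 68 of the 77 members, and over all of them the bounds reached from -1.22 to 1.12.

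With all 4 libraries, the members leaned within that band to lower values on cuprizone. The median log2 fold was -0.13, where that of all genes tested was 0.00, and 59 members had a negative and 18 a positive fold, while 49.9% of all genes tested had a negative and 50.1% a positive one. In 19 members both cuprizone libraries lay below both mock libraries, beside 22.5% of all genes, and in 6 both lay above, beside 21.9%. The other 52 overlapped, so the groups were separate in 32.5% of members, beside 44.4% of all genes. In 19 members the gap between the means of the diets was larger than both gaps between replicates, and in 58 it was not. The share over all genes tested was not counted for this gap, so 19 cannot be read as many or few. The size of the lean moved with single libraries, and without cuprizone replicate 2 the members' median lay slightly above that of all genes. Leaving out mock replicate 1 gave a median of 0.01, with 38 negative and 39 positive folds, where the median of all genes was 0.04 and 49 members lay below it. Leaving out cuprizone replicate 2 gave -0.03, where the median of all genes was -0.05 and 32 members lay below it. Leaving out cuprizone replicate 1 gave -0.23, where the median of all genes was -0.03 and 59 members lay below it. Without mock replicate 2 the members' median was -0.20, where that of all genes was 0.06 and 64 members lay below it. With library totals in place of TMM factors the median was -0.06 and that of all genes 0.07, so the distance between them was the same to 2 decimals, -0.13.

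The libraries of a diet differed among themselves in the same way across many members. Cuprizone replicate 1 stood above cuprizone replicate 2 in 56 of 77 members, with a median log2 gap of 0.17. Mock replicate 1 stood above mock replicate 2 in 67 of 77, with a median gap of 0.19. Set against each gene's own mean, the median member was at 0.02 and -0.14 on the log2 scale in the cuprizone libraries, against 0.17 and -0.05 in the mock libraries. The order from high to low was therefore mock replicate 1, cuprizone replicate 1, mock replicate 2 and cuprizone replicate 2, with the diets interleaved.

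**Figure D1:**
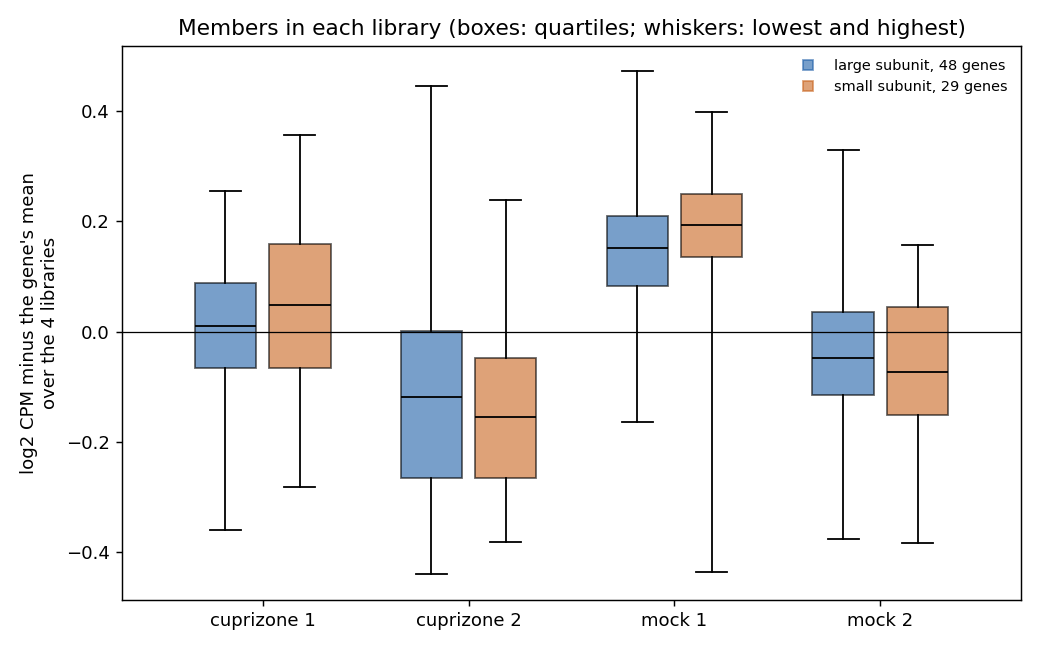
Log2 CPM of each member minus its mean over the 4 libraries, by library, for the large and the small subunit; boxes are quartiles with the median, and whiskers reach the lowest and highest gene. The small-subunit medians were 0.05 and -0.16 in the cuprizone libraries, against 0.19 and -0.07 in the mock libraries, and the large-subunit medians followed the same order.

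The 48 large-subunit genes had a median log2 fold of -0.12, with 36 negative folds, and the 29 small-subunit genes a median of -0.15, with 23 negative folds, a difference of 0.03 between the medians. Summed counts of large-subunit genes were 1.92 and 2.11 times those of small-subunit genes in the cuprizone libraries, against 1.92 and 1.98 times in the mock libraries. The ratio averaged 2.02 ± 0.131 in cuprizone and 1.95 ± 0.0422 in mock (SD, n = 2 each), and the lowest of the 4 came from a mock library. With 2 libraries against 2, no exact test could separate these sums, and none was run. Mrps30 and Mrps18a are named for the small subunit but are placed in the large one by structures of the mammalian ribosome; counting them there left the ratio at 2.30 ± 0.153 in cuprizone and 2.23 ± 0.0283 in mock (SD, n = 2 each). Mrps36, kept by its symbol, is now known as a subunit of the oxoglutarate dehydrogenase complex, and stood at 26.8 and 20.1 CPM in the cuprizone libraries, against 29.4 and 22.2 CPM in the mock libraries.

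**Figure D2:**
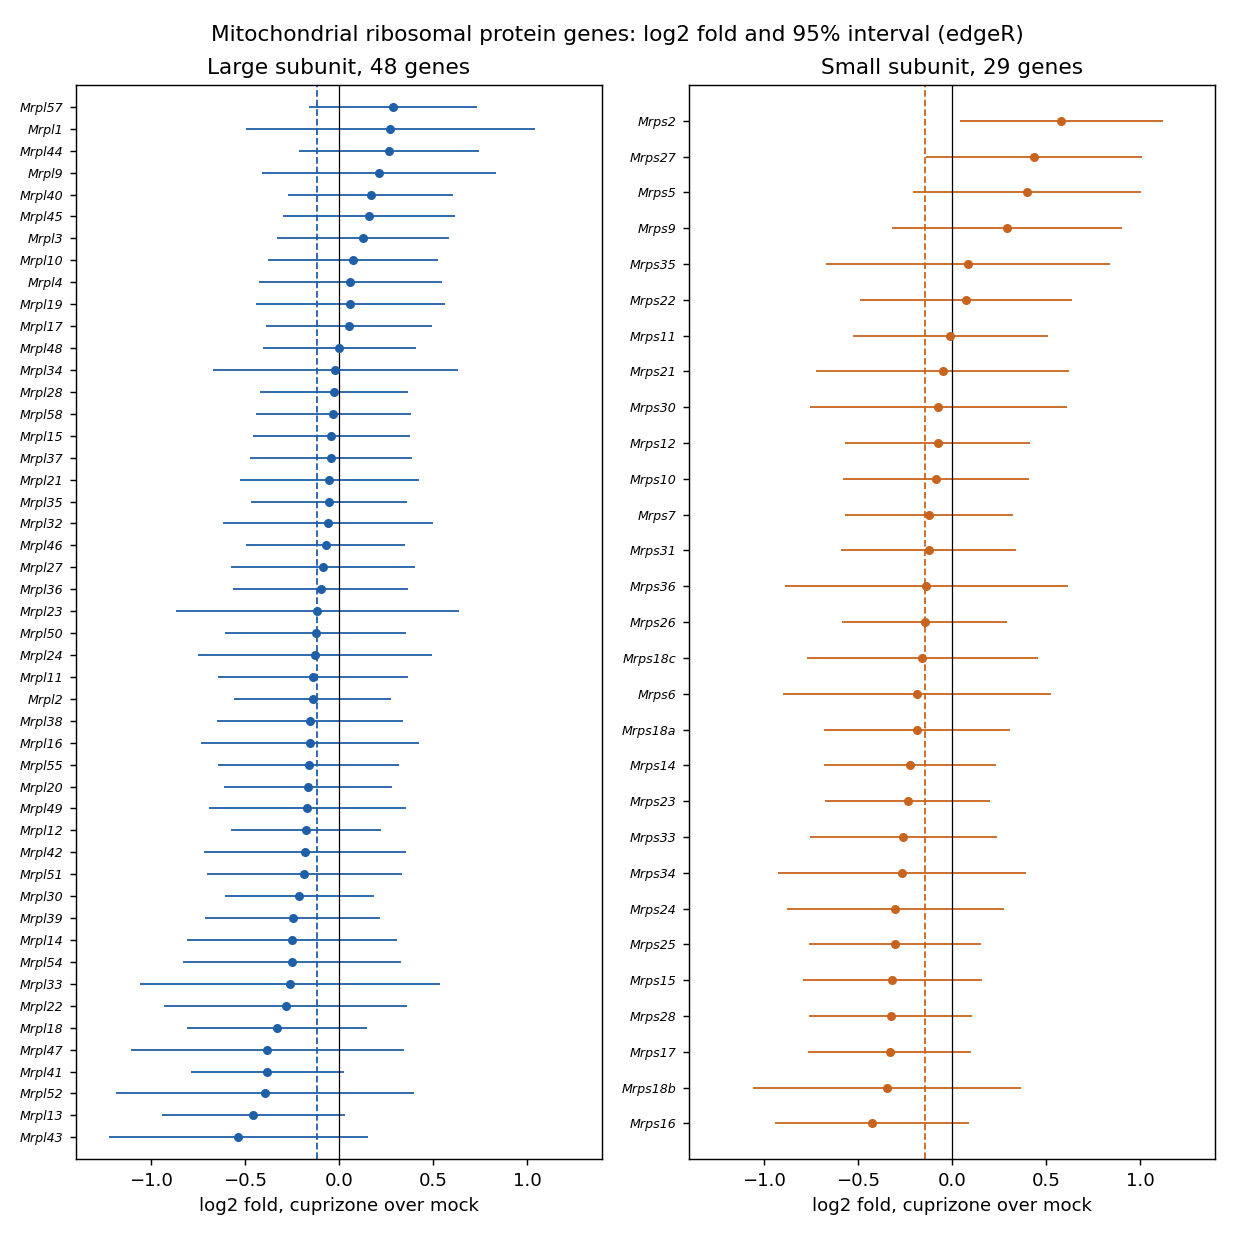
Log2 fold of cuprizone over mock for each of the 77 members with its 95% interval from the edgeR fit, large subunit left and small subunit right; the dashed lines mark the subunit medians of -0.12 and -0.15. The interval of Mrps2 lay above 0, and the intervals of the other 76 members included 0.

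Among the small-subunit genes, Mrps2, a core protein with a bacterial counterpart, stood at 59.0 and 54.7 CPM in the cuprizone libraries, against 34.3 and 41.8 CPM in the mock libraries. Both cuprizone libraries lay above both mock libraries, and the log2 fold of 0.58 (SE 0.22, 95% interval 0.04 to 1.12) was the largest of the members. Its unadjusted edgeR p was 0.0385 and its adjusted p 0.358, so it was not called, and over the alternatives its adjusted p lay between 0.289 and 0.828. Mrps27, a protein of the pentatricopeptide repeat type found in mitochondria alone, stood at 42.3 and 38.7 CPM in cuprizone, against 28.6 and 31.3 CPM in mock. The groups did not overlap, at a log2 fold of 0.44 (SE 0.24). Mrps5, another core protein of bacterial type, stood at 47.7 and 38.2 CPM in cuprizone, against 35.2 and 29.9 CPM in mock, a log2 fold of 0.40 (SE 0.25). The adjusted p of Mrps27 and Mrps5 in edgeR was 0.521 and 0.592.

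The small-subunit genes with the most negative folds lay on the other side. Mrps16, a core protein whose loss in humans causes a respiratory chain disorder, stood at 60.1 and 47.8 CPM in cuprizone, against 76.3 and 68.6 CPM in mock, a log2 fold of -0.43 (SE 0.21). Mrps18b, 1 of 3 nuclear copies related to a single bacterial protein, stood at 18.9 and 16.3 CPM in cuprizone, against 22.7 and 22.1 CPM in mock, a log2 fold of -0.35 (SE 0.30). In both the groups did not overlap, and their edgeR adjusted p was 0.483 and 0.719. Of the exon bases of Mrps18b, 30.5% also belong to an antisense gene, which had 0 counts in each library. The strand setting of the counting is not given in the sources used here. Those 0 counts therefore do not show that the overlap left the counts of Mrps18b untouched.

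Among the large-subunit genes, Mrpl57 and Mrpl44, both found in mitochondria alone, had the largest positive folds with separate groups. Mrpl57 stood at 80.8 and 92.9 CPM in cuprizone, against 70.2 and 72.1 CPM in mock, a log2 fold of 0.29 (SE 0.19). Mrpl44, which has the fold of a double-strand ribonuclease and whose variants in humans are linked to heart disease, stood at 56.5 and 60.2 CPM in cuprizone, against 49.2 and 47.9 CPM in mock, a log2 fold of 0.27 (SE 0.20). Their edgeR adjusted p was 0.600 and 0.669. Mrpl40, whose human counterpart lies in a recurrent chromosomal deletion, was the other large-subunit gene with both cuprizone libraries above both mock libraries, at 81.2 and 82.8 CPM in cuprizone, against 77.2 and 68.7 CPM in mock; it was named after its values were seen.

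On the lower side, Mrpl43 stood at 19.3 and 16.9 CPM in the cuprizone libraries, against 25.1 and 27.3 CPM in the mock libraries. The groups did not overlap, and the log2 fold was -0.54 (SE 0.29, 95% interval -1.22 to 0.15, edgeR adjusted p 0.512). Of its exon bases 33.4% are shared with Twnk, the helicase of mitochondrial DNA replication, which lies on the other strand. Mrpl13, a core protein of bacterial type, stood at 61.8 and 51.4 CPM in cuprizone, against 81.4 and 73.9 CPM in mock, a log2 fold of -0.45 (SE 0.20, edgeR adjusted p 0.425). Mrpl41, found in mitochondria alone, stood at 122 and 107 CPM in cuprizone, against 154 and 143 CPM in mock, a log2 fold of -0.38 (SE 0.17, edgeR adjusted p 0.423). Each of the 10 members named here for its fold kept its sign in every alternative fit and was called in none of them. They were picked for groups that did not overlap, so leaving out a library could hardly change the sign. The kept signs are therefore no separate support for these folds.

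**Figure D3:**
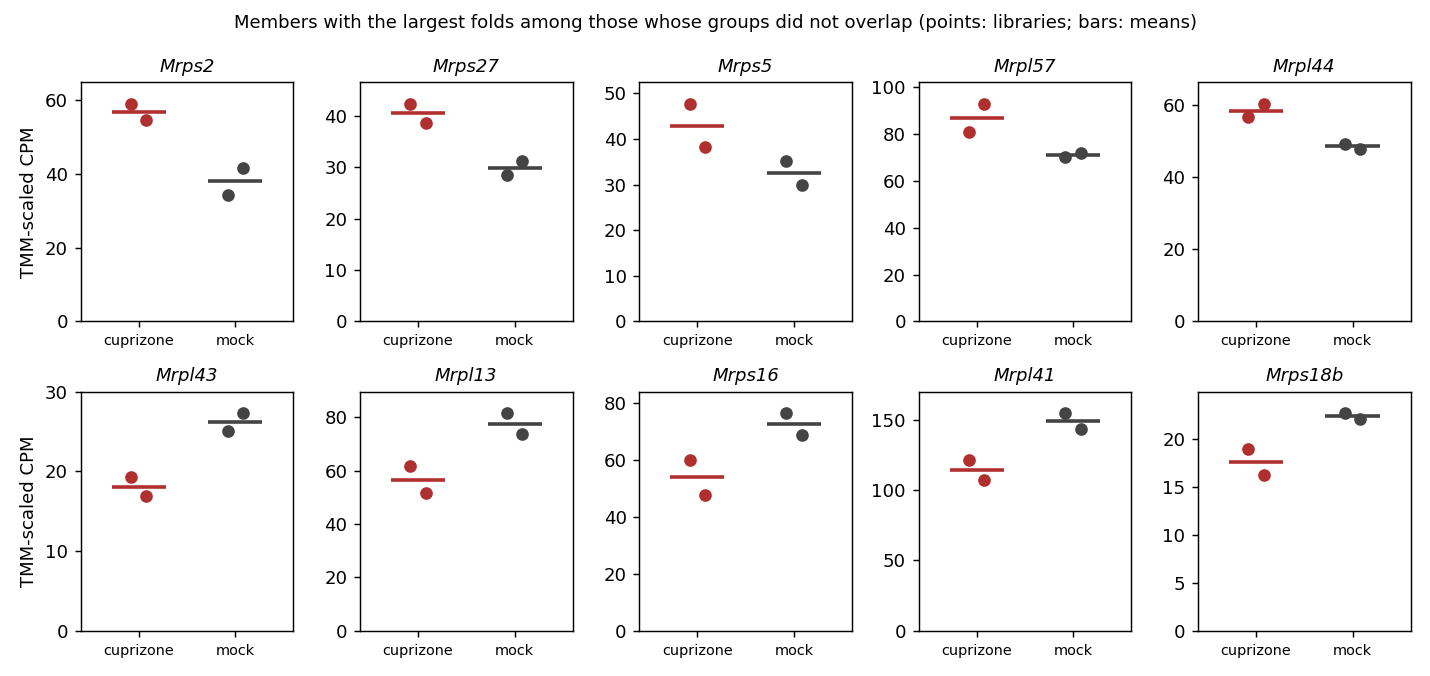
TMM-scaled CPM in each library (points) with group means (bars) for the 5 largest positive folds, top row, and the 5 most negative folds, bottom row, among members whose groups did not overlap. Cuprizone is left of mock in each panel, and no panel holds a gene past the adjusted threshold of 0.05.

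On GRCm38 the genes of these examples lie on 7 chromosomes: Mrps2 at 28468066 to 28471178, Mrps5 at 127587222 to 127606829 and Mrpl41 at 24974117 to 24975098 on chromosome 2, Mrps27 at 99344786 to 99415562 on chromosome 13, Mrps16 at 20389304 to 20393634 and Mrpl57 at 57826234 to 57829296 on chromosome 14, Mrps18b at 35910379 to 35916389 on chromosome 17, Mrpl44 at 79776018 to 79781445 on chromosome 1, Mrpl43 at 45004829 to 45006442 on chromosome 19 and Mrpl13 at 55534094 to 55557748 on chromosome 15. The tables hold 1 count per gene over all its exons, untranslated regions included. Exons of 32 of the 77 members overlap those of another annotated gene. The median log2 fold was -0.14 over the 32 members with such an overlap and -0.12 over the other 45.

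Levels per length spanned the family widely. Per kilobase of exon, Mrpl41 had the highest mean level of the large-subunit genes at 148 CPM per kilobase, followed by Mrpl28 at 147 and Mrpl27 at 118, the last a protein near the peptidyl transferase centre. Mrps12, which serves accurate decoding, led the small subunit at 147 CPM per kilobase, followed by Mrps28 at 98.5 and Mrps21 at 95.5. Mrpl33 was the lowest of the large-subunit genes at 3.11 CPM per kilobase, and Mrps35 the lowest of the small-subunit genes at 3.84. The exon length here is the union over all annotated transcripts, so genes with long, little-used exons appear low. Median levels were 32.6 CPM per kilobase over the large-subunit and 19.4 over the small-subunit genes.

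Of these, Mrpl28 stood at 203 and 199 CPM in the cuprizone libraries, against 223 and 186 CPM in the mock libraries, a log2 fold of -0.03 (SE 0.16, 95% interval -0.42 to 0.37). Mrps12 stood at 170 and 128 CPM in cuprizone, against 172 and 143 CPM in mock, a log2 fold of -0.08 (SE 0.20). In both genes the groups overlapped. The log2 folds were -0.08 for Mrpl27 (SE 0.20), -0.05 for Mrps21 (SE 0.28), -0.33 for Mrps28 (SE 0.18), -0.26 for Mrpl33 (SE 0.33) and 0.08 for Mrps35 (SE 0.31). Mrpl58, which frees peptides from stalled mitochondrial ribosomes, stood at 113 and 121 CPM in cuprizone, against 127 and 112 CPM in mock, a log2 fold of -0.03 (SE 0.17). Of the folds in this paragraph, those of Mrpl28, Mrps12, Mrpl27, Mrps21, Mrpl33, Mrps35 and Mrpl58 changed sign when 1 library was left out or library totals were used. That of Mrps28 did not, but its groups did not overlap, so leaving out 1 library could hardly change its sign.

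The 45 genes of bacterial type had a median log2 fold of -0.11, with 35 negative, and the 28 found in mitochondria alone -0.14, with 20 negative. Mrpl55, Mrps18a, Mrps18b and Mrps36 were assigned to neither class, and all 4 had negative folds. Without cuprizone replicate 1 the difference between the medians of the classes was -0.06, against 0.02 with all libraries.

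The folds of the members went with the length of the protein they encode. Taking the longest coding sequence in GENCODE M21, which ran from 87 to 442 codons, 21 of 22 members under 150 codons and 16 of 17 members of 150 to under 200 codons had negative folds. Of 23 members of 200 to under 300 codons 16 were negative, and of 15 with 300 or more codons 6 were. The median log2 fold was -0.18 under 150 codons and 0.08 at 300 or more. Spearman's rho between coding length and log2 fold was 0.48 over the 77 genes, 0.44 within the large and 0.50 within the small subunit. It is a description across genes that share the same 4 libraries. Mrpl57, with 102 codons, was the single member under 150 codons with a positive fold.

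**Figure D4:**
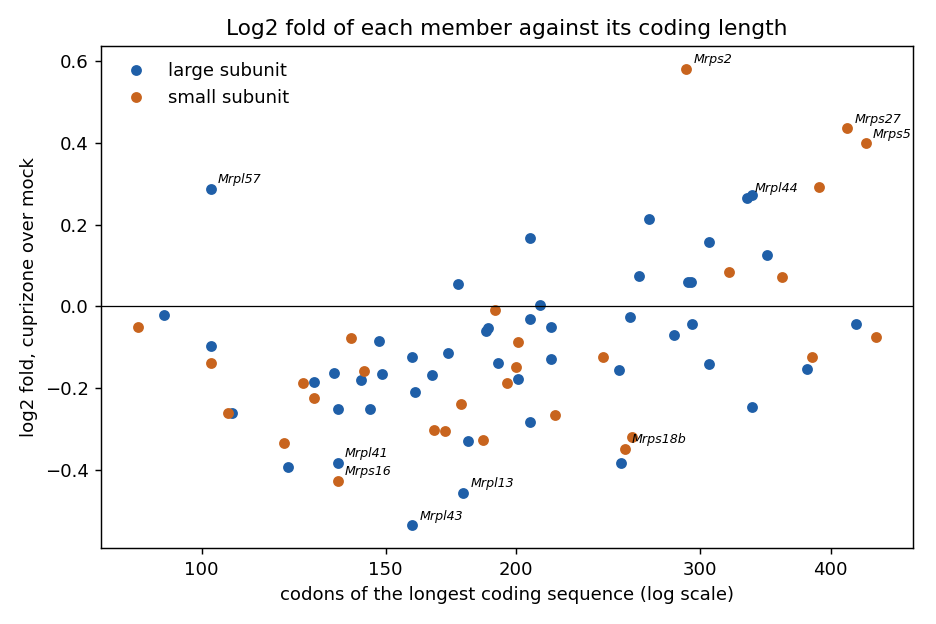
Log2 fold of cuprizone over mock against the codons of the longest coding sequence (log axis), 1 point per member, coloured by subunit, with the 10 named members labelled. Points under 150 codons lie below 0 except Mrpl57, and 9 of the 15 points at 300 or more codons lie above 0.

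The same order by length stood in all protein-coding genes tested. There, 74.7% of 880 genes under 150 codons had negative folds, beside 43.6% of 10155 genes with 300 or more, with medians of -0.20 and 0.08, and rho was 0.21 over 13708 genes. Between the 2 cuprizone libraries the members were ordered by length as well. The median log2 gap of cuprizone replicate 1 over replicate 2 was 0.32 in members under 150 codons and -0.01 in members of 300 or more, with a rho of -0.47 over the 77. Between the 2 mock libraries the members of both bins stood close together. For mock replicate 1 over replicate 2 the medians were 0.20 and 0.21 in the same bins, with a rho of -0.10. Over all protein-coding genes tested, with 0.1 CPM added, the gaps of both diets were ordered by length. In cuprizone the medians were 0.28 under 150 codons and -0.08 at 300 or more, with a rho of -0.14. In mock they were 0.23 and -0.07, with a rho of -0.18. The part of coding length in the lean of the members was not tested.

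The RNAs of the mitochondrial ribosome were set beside its proteins. The large ribosomal RNA, mt-Rnr2, had 118 and 64 counts in the cuprizone libraries, against 2584 and 2278 in the mock libraries, and fell by 4.87 on the log2 scale (SE 0.37, edgeR adjusted p 0.0184). The small ribosomal RNA, mt-Rnr1, had 7 and 41 counts in cuprizone, against 623 and 511 in mock, a log2 fold of -4.72 (SE 0.76) that was not called in edgeR at an adjusted p of 0.124 and was called by DESeq2 at 3.92e-11. Per 1000 counts of the 77 protein genes there were 0.919 and 0.793 counts of both RNAs together in the cuprizone libraries, against 22.6 and 23.2 in the mock libraries. The libraries were made from polyadenylated RNA bound to cytosolic ribosomes, so these counts are what such a preparation carries of mitochondrial RNA, and not the amount of rRNA in mitochondria.

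**Figure D5:**
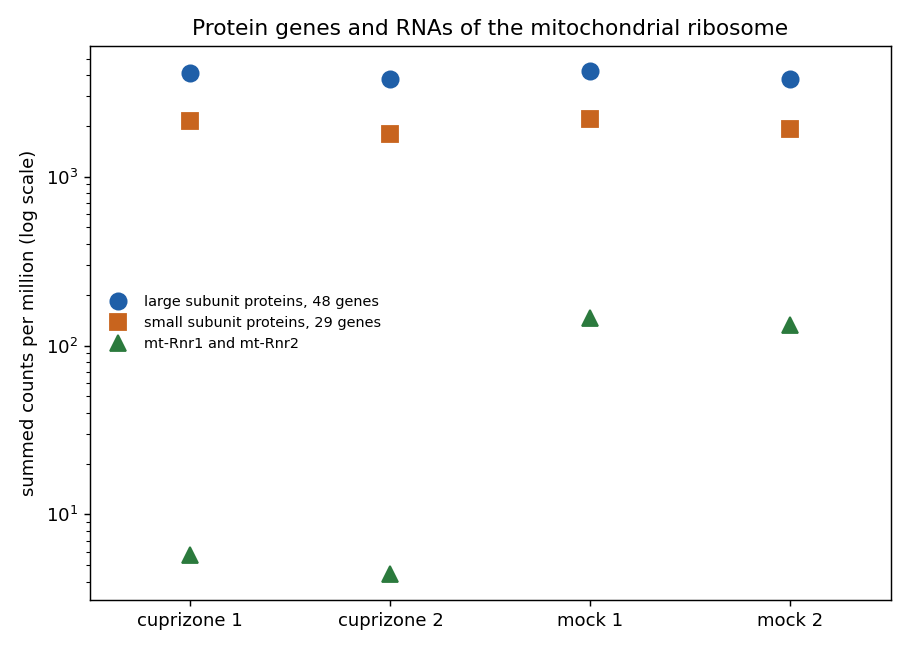
Summed CPM, on a log axis, of the 48 large-subunit and the 29 small-subunit protein genes and of mt-Rnr1 with mt-Rnr2, in each library. The protein sums lay within a narrow range in all 4 libraries, while the RNAs lay far lower in both cuprizone libraries.

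Of 5 subunit genes that do not carry an Mrp name edgeR called 0. Dap3, a GTP-binding protein of the small subunit, stood at 127 and 142 CPM in cuprizone, against 150 and 128 CPM in mock, a log2 fold of -0.05 (SE 0.17), and Aurkaip1, the highest of the 5 in CPM, had -0.06 (SE 0.20), both with signs that changed between alternatives. Ptcd3, a pentatricopeptide protein of the small subunit, stood at 57.0 and 66.3 CPM in cuprizone, against 37.2 and 42.1 CPM in mock. The groups did not overlap, at a log2 fold of 0.64 (SE 0.22, edgeR adjusted p 0.311).

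The genes that build and serve the mitochondrial ribosome were taken next. Of 25 genes of its assembly edgeR called 0, with 16 positive and 9 negative folds and a median of 0.04. The helicase Dhx30, the highest of them in CPM, stood at 81.6 and 113 CPM in cuprizone, against 75.0 and 77.4 CPM in mock, and Ybey, an enzyme that processes ribosomal RNA, at 10.4 and 11.6 CPM in cuprizone, against 4.60 and 3.14 CPM in mock, a log2 fold of 1.51 (SE 0.47, edgeR adjusted p 0.273). Of 14 tested translation factors and related genes edgeR called 0, with 9 positive folds and a median of 0.12. The elongation factor gene Tsfm had -0.01 (SE 0.19), and the release factor gene Mtrf1 stood at 24.9 and 16.5 CPM in cuprizone, against 10.2 and 10.8 CPM in mock, a log2 fold of 0.98 (SE 0.37, adjusted p 0.346).

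Of 17 mitochondrial aminoacyl-tRNA synthetases, the enzymes that charge tRNAs for this ribosome, 14 had positive folds, with a median of 0.36, and in 11 both cuprizone libraries lay above both mock libraries, beside 21.9% of all genes tested. In 2 both lay below, beside 22.5%. In edgeR 0 of the 17 were called, and 3 had an unadjusted p under 0.05, where 12.8% of all genes did. Aars2, the alanyl-tRNA synthetase, stood at 22.0 and 16.1 CPM in cuprizone, against 5.81 and 6.23 CPM in mock, a log2 fold of 1.66 (SE 0.39) with an edgeR adjusted p of 0.196 and a DESeq2 adjusted p of 0.0202. Lars2, the leucyl-tRNA synthetase and the highest of them in CPM, stood at 483 and 513 CPM in cuprizone, against 446 and 490 CPM in mock, a log2 fold of 0.09 (SE 0.14). None of these lists was compared with the members by a test. The shares over all genes tested are not ones at like coding length, with which folds went over all protein-coding genes.

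The promoter windows of the members were read for 3 short motifs of factors that act on many nuclear genes for mitochondria. RefSeq windows on GRCm38.p6, from 250 bases before to 50 after a start, were at hand for 68 of the 77 members as 74 windows; Mrpl4, Mrpl13, Mrpl15, Mrpl19, Mrpl38, Mrpl54, Mrps28, Mrps34 and Mrps35 were without one. The NRF1 motif stood in 13 windows, 17.6% beside 4.60% of all 32851 windows of the table and 8.87% of the windows of tested genes. The ETS motif CCGGAAGT stood in 12, 16.2% beside 3.89% and 7.12%, and the YY1 motif AAGATGGC in 12, 16.2% beside 2.75% and 3.93%, both strands searched and with no test. The G and C content was 58.5% at the median of the members' windows, beside 52.7% in all windows and 60.3% in those of tested genes. The median log2 fold was -0.09 over the 34 genes with any of the motifs and -0.14 over the 34 without, with 24 and 29 negative folds.

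The windows of 3 of the members named for their folds are shown because together they hold each motif. Mrps27 and Mrpl57 had positive folds and Mrpl43 a negative one, so only the ETS motif is shown on both sides of 0. Capitals mark the motifs. That of Mrps27 (chr13:99344536-99344835, plus strand) holds an ETS motif on the reverse strand, first base at -49 from the start, and a YY1 motif at 14.
Mrps27: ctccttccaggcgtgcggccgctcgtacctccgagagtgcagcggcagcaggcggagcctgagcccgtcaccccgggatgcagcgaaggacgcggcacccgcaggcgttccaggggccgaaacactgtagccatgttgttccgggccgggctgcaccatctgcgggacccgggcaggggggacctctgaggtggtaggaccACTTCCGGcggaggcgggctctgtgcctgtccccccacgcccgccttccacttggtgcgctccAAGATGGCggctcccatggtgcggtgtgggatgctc
That of Mrpl57 (chr14:57825989-57826288, plus strand) holds an NRF1 motif at -57.
Mrpl57: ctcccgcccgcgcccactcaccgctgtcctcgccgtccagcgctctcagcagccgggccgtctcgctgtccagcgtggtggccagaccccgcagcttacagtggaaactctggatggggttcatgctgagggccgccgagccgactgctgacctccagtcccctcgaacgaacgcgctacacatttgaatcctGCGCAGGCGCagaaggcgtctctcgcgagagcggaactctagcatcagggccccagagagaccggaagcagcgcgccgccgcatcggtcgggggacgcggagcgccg
That of Mrpl43 (chr19:45006393-45006692, minus strand) holds an ETS motif at -12.
Mrpl43: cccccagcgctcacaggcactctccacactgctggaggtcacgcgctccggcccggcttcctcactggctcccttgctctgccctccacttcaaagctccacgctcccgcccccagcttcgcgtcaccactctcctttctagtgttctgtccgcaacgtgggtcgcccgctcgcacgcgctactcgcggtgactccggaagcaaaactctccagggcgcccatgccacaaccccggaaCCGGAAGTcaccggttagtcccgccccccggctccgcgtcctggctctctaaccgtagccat
A match is a description of the letters and not of binding, and the windows of Mrps2, Mrps5, Mrps16, Mrpl41 and Mrps18b held none of the motifs.

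Mitochondrial ribosomes are in every cell type, and the pull-down held RNA of several. The 10 astrocyte markers took 0.527% and 0.567% of counts in the cuprizone libraries, against 0.888% and 0.851% in the mock libraries. Of these, 9 of 10 had negative folds. In 5 of the 10, Slc1a2, Slc1a3, Gfap, Aldoc and Fgfr3, both cuprizone libraries lay below both mock libraries, beside 22.5% of all genes tested. In 0 both lay above, beside 21.9%. The largest fall of the 10 was that of Slc1a2, at 595 and 426 CPM in cuprizone, against 1398 and 1879 CPM in mock. EdgeR called 0 of the 10. The defining markers Aqp4, Aldh1l1, Gja1 and Gfap had at least 1521 counts in each library. Gfap stood at 373 and 444 CPM in cuprizone, against 989 and 891 CPM in mock, with separate groups. In the other defining markers the groups overlapped, at log2 folds of -0.34 for Aqp4, -0.10 for Aldh1l1 and -0.18 for Gja1. Neuron markers took 1.49% and 1.50% in cuprizone, against 1.28% and 1.32% in mock, with 5 of 8 folds positive. Oligodendrocyte markers took 0.930% and 1.24% in cuprizone, against 1.22% and 1.42% in mock, with 6 of 7 negative. Microglia markers, all 6 with negative folds and with Cx3cr1 and Aif1 at 0 in both cuprizone libraries, took at most 0.00196% of any library, and endothelial markers at most 0.000231%, with Cdh5 at 0 in all 4 and Flt1 at 0 in cuprizone replicate 1 and mock replicate 1. Fewer cells of a type and less RNA per cell cannot be told apart in such bulk libraries, and the part of these shares in the folds of the members was not tested.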

How the data were processed

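RNA from HA pull-downs of 2 cuprizone and 2 mock samples was sequenced, and the authors deposited raw counts per Ensembl gene, 1 table per library. Per the submitters' processing notes, FastQC 0.11.9, STAR 2.5.4b, featureCounts 1.6.0 and the build GRCm38 (mm10) were used; the sources used here do not give the annotation release, strand setting or treatment of multiply mapped reads. Per the labels' protocols, RNA with an integrity number above 8 went into a low-input kit. Symbols matched 55144 of 55471 ids, and coordinates, exon lengths and coding lengths come from GENCODE M21 on GRCm38.

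The test was that of edgeR 4.0.16 under R 4.3.3 (filterByExpr, TMM factors of 0.974 to 1.03, glmQLFit with robust estimation and legacy dispersions, glmQLFTest, 2-sided, Benjamini-Hochberg over 15816 genes, threshold 0.05), on the deposited counts as they stand. The edgeR fit was checked on simulated counts, and the other steps were not. The SE is the size of the log2 fold divided by the square root of F, and 95% intervals use t quantiles with the fit's degrees of freedom. CPM are TMM-scaled, except in the member rule and the shares, which use library totals. A count of 0 allows up to 0.126 to 0.141 CPM (3 counts), for counting error only. DESeq2 1.42.0, limma-voom 3.58.1, other scalings, filters and leaving out each library were alternatives. The members and lists were chosen with earlier results of these data known, so no list was tested as a set; the dispersion setting, too, was kept with the counts of calls under both settings known. Members were named by a rule: any called; the 5 largest folds each way among genes averaging 5 CPM or more with separate groups; the 3 highest and the lowest per kilobase in each subunit; per list the called genes or the most abundant, and the largest fold; and always mt-Rnr1, mt-Rnr2, Mrpl58 and Dap3.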

Additional observations from a re-analysis of the deposited data

How the results depend on the processing

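No member was called under any of the 13 alternative fits, and the lowest adjusted p of a member over them ran from 0.289 to 0.819. The count of genes called over the whole table moved far more: from 13 (5 higher and 8 lower) to 191 (45 and 146) with no filter on low counts, 68 (14 and 54) with a floor of 1 on the mean CPM, 720 (265 and 455) with DESeq2, 47 (9 and 38) with limma-voom and 51 (9 and 42) with bias-adjusted dispersions. Leaving out 1 library gave 5 to 123 calls, with 2 to 52 higher and 3 to 71 lower. In the same runs the median log2 fold ran from -0.23 to 0.01 over all members, from -0.22 to 0.011 over the large and from -0.29 to -0.01 over the small subunit, the difference of large minus small from 0.01 to 0.07, and that of bacterial-type minus mitochondria-specific members from -0.064 to 0.021; the causes were not tested. All 77 members also passed a floor of 5 on the mean CPM. With the replicate block 5 genes were called lower and 0 members. Over the 15816 genes tested, same-numbered libraries did not deviate together (correlation -0.01), so the numbers were not taken as pairs. Among the 77 members, replicate 1 stood above replicate 2 in 56 on cuprizone and in 67 on mock. Leaving out a library leaves 1 group with a single one, which is then assumed to vary like the others. With 2 libraries a group, a fold whose interval includes 0 was not detectable as a difference, which does not show that the diets were alike.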

Other observations

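Many members share their start region with a gene on the other strand. Of the 77 members, 18 (23.4%) had the start of a protein-coding gene within 1000 bases upstream on the opposite strand in GENCODE M21, beside 9.69% of 13708 protein-coding genes tested. The pairs include Mrps12 with Sars2, the mitochondrial seryl-tRNA synthetase, whose starts lie 172 bases apart, with log2 folds of -0.08 for Mrps12 and 0.36 for Sars2. Mrpl32 and Psma2, a proteasome subunit gene, start 75 bases apart and had -0.06 and -0.06, and Mrpl49 and Fau, which encodes a protein of the cytosolic ribosome, start 59 bases apart and had -0.17 and -0.39. Mrpl37 and Cyb5rl start 120 bases apart and had -0.04 and -2.18, so members of a pair could differ widely. These pairs were chosen after their values were seen. The rule counted only starts that lie upstream, so pairs that overlap at their starts were left out. Mrpl46 and Mrps11, on opposite strands, share 173 exon bases and were not among the 18.

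Among the pseudogene rows left out, Mrpl23-ps1 had 66 and 55 counts in the cuprizone libraries, against 91 and 60 in the mock libraries, while the others had at most 30 counts in any library.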
